A study of Saccharomyces cerevisiae with 6 samples.

Results

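Saccharomyces cerevisiae breaks down phenylalanine, tyrosine and tryptophan with enzymes encoded by ARO8, ARO9 and ARO10, and the transcription factor encoded by ARO80 controls part of that route. These 4 genes were picked by name from the 6696 open reading frames counted, and all 4 passed the filter on low counts that left 6146 open reading frames for testing. The low levels of ARO9 and ARO10 in glucose-grown cells lacking CYC8 were known when they were picked. Every value of the 4 genes from a comparison that holds glucose libraries is therefore given as a description with no test. Cyc8 is a subunit of the Cyc8-Tup1 complex, a general corepressor that sequence-specific repressors bring to promoters. Total RNA depleted of ribosomal RNA was sequenced from 6 samples of BY4741, a haploid laboratory strain of mating type a. The groups were the cyc8 deletion strain (BY4741 cyc8 replaced by kanMX4) in mannose, with 1 library, wild type in mannose, with 1 library, the deletion strain in glucose, with 2 libraries, and wild type in glucose, with 2 libraries. All were grown for 3 h in 1% yeast extract and 2% peptone with 2% of the named sugar. The labels name 1 deletion strain and do not say whether the glucose replicates were separate cultures, so p-values may measure technical spread only.

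In the Ehrlich pathway an aminotransferase removes the amino group of an amino acid, a decarboxylase turns the 2-oxo acid into an aldehyde, and the aldehyde is reduced to a fusel alcohol or oxidised to a fusel acid. Aro8 and Aro9 are aromatic aminotransferases. Aro8 also serves in the synthesis of phenylalanine and tyrosine, while Aro9 is known mainly for breakdown. Aro10 is the decarboxylase, with phenylpyruvate among its substrates. Aro80 is a zinc cluster activator known to turn on ARO9 and ARO10 when aromatic amino acids are present, and it is described as binding CCG triplets.

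On the R64 reference, ARO8 (YGL202W) is at chrVII:116059-117561, ARO9 (YHR137W) at chrVIII:375709-377250, ARO10 (YDR380W) at chrIV:1234218-1236125 and ARO80 (YDR421W) at chrIV:1312040-1314892. Each lies on the forward strand and is a single coding exon. The sequences before their start codons are shown because those of ARO9 and ARO10 carry CCG triplets in a row, and that of ARO8 does not. A run of 4 triplets also precedes SPL2, SDH6, SOH1 and ASK1, none of which fell in both sugars. A link between run and level was not tested. Each stretch shown is 250 bases, 5′ to 3′ on the forward strand, read from the RefSeq R64 genome. Capitals mark the triplets of each CCG pair on either strand, a pair being CCG, then 7 bases of any kind, then CCG, where CGG is a reverse-strand triplet, and in ARO8 a reverse-strand match to GATAAG, the core site of the GATA factors of nitrogen control. The stretches are chrVIII:375459-375708 for ARO9, chrIV:1233818-1234067 for ARO10, chrIV:1311790-1312039 for ARO80 and chrVII:115809-116058 for ARO8. The ARO10 stretch ends 151 bases before the start codon and the others end at the base before it.
ARO9: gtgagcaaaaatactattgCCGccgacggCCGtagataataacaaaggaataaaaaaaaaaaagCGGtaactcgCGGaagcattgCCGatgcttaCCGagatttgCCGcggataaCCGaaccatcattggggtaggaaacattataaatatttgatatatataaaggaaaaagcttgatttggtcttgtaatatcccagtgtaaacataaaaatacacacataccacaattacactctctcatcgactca
ARO10: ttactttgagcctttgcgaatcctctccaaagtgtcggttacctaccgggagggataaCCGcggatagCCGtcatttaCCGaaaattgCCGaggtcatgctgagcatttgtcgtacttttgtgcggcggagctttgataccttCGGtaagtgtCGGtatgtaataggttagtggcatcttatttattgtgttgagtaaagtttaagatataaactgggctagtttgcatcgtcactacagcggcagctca
ARO80: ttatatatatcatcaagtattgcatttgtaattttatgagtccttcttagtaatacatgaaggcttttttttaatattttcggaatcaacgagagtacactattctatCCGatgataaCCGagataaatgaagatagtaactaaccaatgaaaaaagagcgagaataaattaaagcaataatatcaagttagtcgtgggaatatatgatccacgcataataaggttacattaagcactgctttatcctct
ARO8: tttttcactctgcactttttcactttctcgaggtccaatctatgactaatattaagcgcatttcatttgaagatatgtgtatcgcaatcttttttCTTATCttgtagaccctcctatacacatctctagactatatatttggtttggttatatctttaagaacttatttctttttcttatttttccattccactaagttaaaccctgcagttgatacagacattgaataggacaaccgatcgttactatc

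Counting back from -1, the base before the start codon, ARO9 has 4 CCG triplets with 7 bases between neighbours, from -165 to -133. It has further pairs from -231 to -219 on the forward strand and from -186 to -174 on the reverse strand. ARO10 has a run of the same form from -342 to -310 and a reverse-strand pair from -257 to -245. ARO80 has 1 pair, from -142 to -130. ARO8 has no such pair in the 500 bases before its start, and its GATAAG match lies from -155 to -150. Neither GATAAG nor TGACTCA, the Gcn4 motif, matched in the 500 bases before ARO9, ARO10 or ARO80, and TGACTCA did not match before ARO8. The shorter GATAA was not searched, and it can be read beside CCG triplets in the printed ARO9, ARO10 and ARO80 stretches.

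Over windows from 250 bases before to 50 bases after the start codon, 2.16% of 6007 promoters held such a CCG pair, 14.7% a GATAAG match and 2.73% a TGACTCA match, both strands counted. In that window ARO9 had 5 CCG pairs, overlapping ones counted separately, ARO80 had 1 and ARO10 had 0. The window of 500 bases, in which ARO10 has 4, was chosen after the data were seen. There the shares were 5.33%, 22.8% and 4.01% of 6006 promoters. A run of 4 triplets occurred in 6 of those windows, which is 0.0999%. They precede ARO9 and its divergent neighbour SPL2, ARO10 and its divergent neighbour SDH6, and SOH1 and ASK1. A match is a stretch of letters and was not measured as a bound site.

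**Figure D1:**
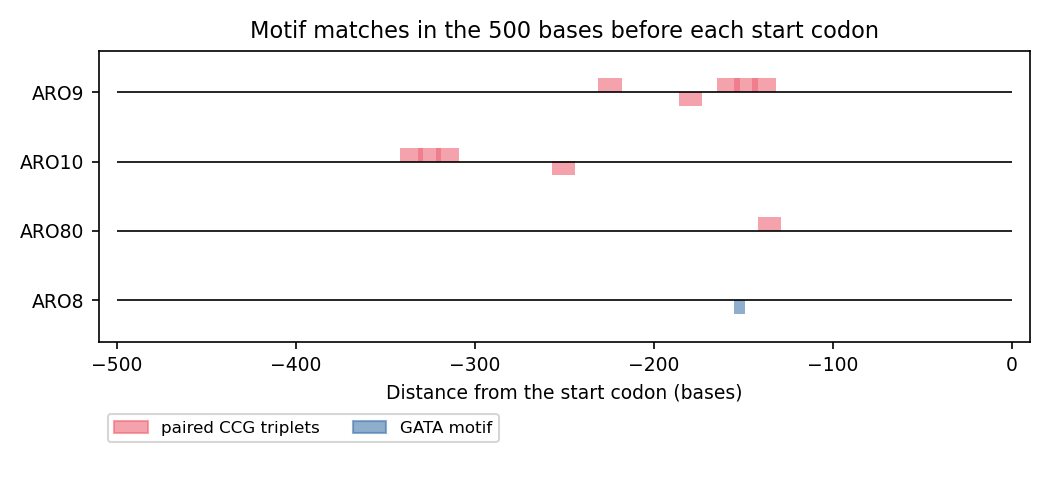
Motif matches in the 500 bases before the start codon of ARO9, ARO10, ARO80 and ARO8. The horizontal axis is the distance from the start codon in bases. Boxes above each line are forward-strand matches and boxes below it reverse-strand matches. ARO9 and ARO10 each carry a run of overlapping paired CCG triplets, ARO80 carries 1 pair and ARO8 a GATAAG match alone. GATA motif here means GATAAG, and the shorter GATAA was not searched.

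The 6 libraries held 26195734 to 44084216 counts, with TMM factors of 0.868 to 1.08, TMM being the trimmed mean of M-values that scales libraries for composition. CYC8 had 180 counts in deletion mannose, 71 and 124 in deletion glucose, and 7506 to 9295 in the wild-type libraries. LEU2, MET17 and URA3, which BY4741 lacks, had 0 counts in every library, which allows up to 3 counts in each. HIS3, which is also disrupted in BY4741, still had 583 to 2151 counts, whose source was not tested. Of the a-cell genes, STE2 had 373 to 11483 counts and BAR1 221 to 5913, while of the alpha-cell genes MF(ALPHA)1 had 2 to 9 counts and STE3 had 6 to 18 in the deletion libraries and 109 to 140 in wild type. All 4 a-cell genes fell in the deletion in glucose, and 3 of 4 in mannose. The share of the 6146 open reading frames called at an adjusted p under 0.05 was 67.9% for genotype in glucose and 79.4% for genotype in mannose, so a call alone is common here.

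Of the aminotransferases, ARO9 was at 4.86 and 5.89 CPM (counts relative to the TMM-scaled library total) in the deletion in glucose, against 87.9 and 87.1 CPM in wild type. The groups were far apart, and the deletion counts behind those values were 159 and 250, against 3303 and 3917 in wild type. The log2 fold change was -4.01 ± 0.10 (SE), 16.1-fold lower in the deletion, the 17th lowest of the 6146 tested. ARO8 stood at 396 and 374 CPM in the deletion in glucose, against 485 and 486 CPM in wild type. Its deletion libraries lay below its wild-type ones, but the log2 fold change was -0.33 ± 0.08. The share of all genes whose groups lay apart in this way was not counted. In this comparison 37.8% of all tested were called lower and 30.1% higher. In bulk RNA, fewer cells expressing a gene and less RNA per cell cannot be told apart.

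ARO10, the decarboxylase gene, was at 1.16 and 1.32 CPM in the deletion in glucose, from 38 and 56 counts. Wild type had 49.1 and 55.0 CPM, from 1845 and 2472 counts. The log2 fold change was -5.38 ± 0.13, 41.6-fold lower and the 5th lowest of all tested. ARO80, the activator gene, had 28.7 and 28.9 CPM in the deletion, against 31.7 and 29.6 CPM in wild type. Its deletion libraries lay just below the lower of the wild-type ones, and the log2 fold change was -0.09 ± 0.09. The genes of Aro9 and Aro10 thus stood far lower in the deletion in glucose, and the gene of their activator nearly level. The median log2 fold change over all genes was -0.08.

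**Figure D2:**
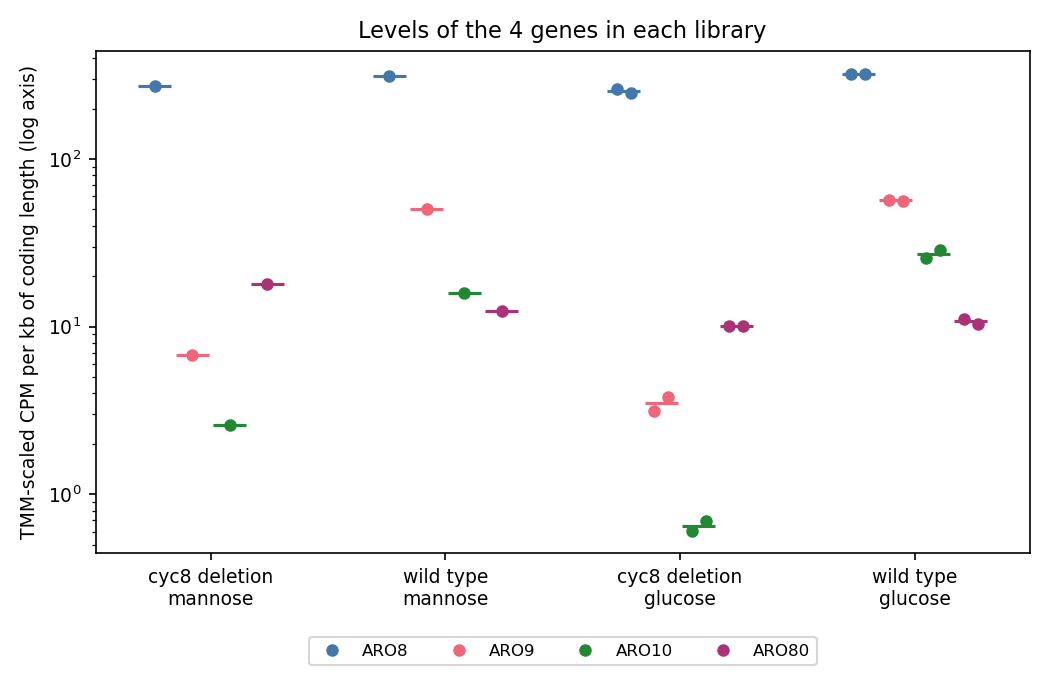
Levels of ARO8, ARO9, ARO10 and ARO80 in each library, in TMM-scaled CPM per kilobase of coding length on a log axis. Points are libraries and short lines group means, with 1 library in each mannose group and 2 in each glucose group. ARO9 and ARO10 lie above ARO80 in glucose-grown wild type and below it in both deletion groups.

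Scaled by coding length, ARO8 was the most abundant of the genes in every group, at 271 CPM per kb in deletion mannose, 313 in wild-type mannose, 256 ± 10.2 in deletion glucose and 323 ± 0.356 in wild-type glucose (SD, n = 2 in glucose). Wild type had the same order in both sugars. Its glucose levels were 56.7 ± 0.347 CPM per kb for ARO9, 27.3 ± 2.18 for ARO10 and 10.7 ± 0.523 for ARO80, and its mannose levels were 50.7, 15.96 and 12.3. In the deletion ARO80 stood second, at 18.1 CPM per kb in mannose and 10.1 ± 0.0543 in glucose. ARO9 followed at 6.76 CPM per kb in mannose and 3.49 ± 0.472 in glucose, and ARO10 was last at 2.61 and 0.650 ± 0.0584. In glucose, where there are replicates, each neighbouring pair in these orders was separated by more than the replicate spread. In mannose 1 library per group gives no spread.

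ARO9 RNA made up 1.18% and 1.51% of the summed ARO8 and ARO9 level per kb in deletion glucose, against 15.01% and 14.88% in wild-type glucose. In mannose the share was 2.43% in the deletion and 13.9% in wild type. The deletion libraries all lay below the wild-type ones, so of the RNA of these aromatic aminotransferases nearly all in the deletion was ARO8. The best nucleotide match between the coding sequences of ARO8 and ARO9 was 70.9% identity over 134 bases. ARO10 matched PDC5 best, at 67.7% over 254 bases, and ARO80 matched no other open reading frame of the R64 annotation.

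The mannose comparison holds no glucose library, with 1 library of each genotype and a spread taken from the glucose pairs. The genes were chosen with earlier results of these data known, and the labels name 1 deletion strain. Its p-values are therefore no independent test of the glucose values. ARO9 was at 10.4 CPM in the deletion, against 78.1 CPM in wild type. It fell, with a log2 fold change of -2.90 ± 0.14 (adjusted p = 4.49e-35, edgeR quasi-likelihood test, Benjamini-Hochberg over 6146), 7.49-fold lower. ARO10 was at 4.97 CPM in the deletion, against 30.4 CPM in wild type. It fell as well, with a log2 fold change of -2.61 ± 0.17 (adjusted p = 2.96e-26, edgeR), 6.12-fold lower. In the ordering of all genes ARO9 was the 72nd lowest and ARO10 the 95th lowest. Beside these falls, 41.1% of all tested were called lower and 38.3% higher.

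ARO80 went the other way in mannose, at 51.6 CPM in the deletion against 35.2 CPM in wild type. The log2 fold change was 0.55 ± 0.12 (adjusted p = 2.46e-05, edgeR), but with upper-quartile scaling, which moved the median of all genes to -0.39, it was 0.23 and missed the threshold (adjusted p = 0.0723). ARO8 was at 407 CPM in the deletion and 471 CPM in wild type. Its log2 fold change of -0.21 ± 0.11 missed the threshold (adjusted p = 0.0734, edgeR), and it passed at -0.53 with upper-quartile scaling (adjusted p = 7.16e-06) and at -0.20 without deletion glucose replicate 1 (adjusted p = 0.0452). Of the 4 genes, then, 2 were called lower, 1 higher and 1 not called with TMM scaling. Of all genes tested, 41.1% were called lower and 38.3% higher in this comparison. No value in mannose has a replicate check.

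**Figure D3:**
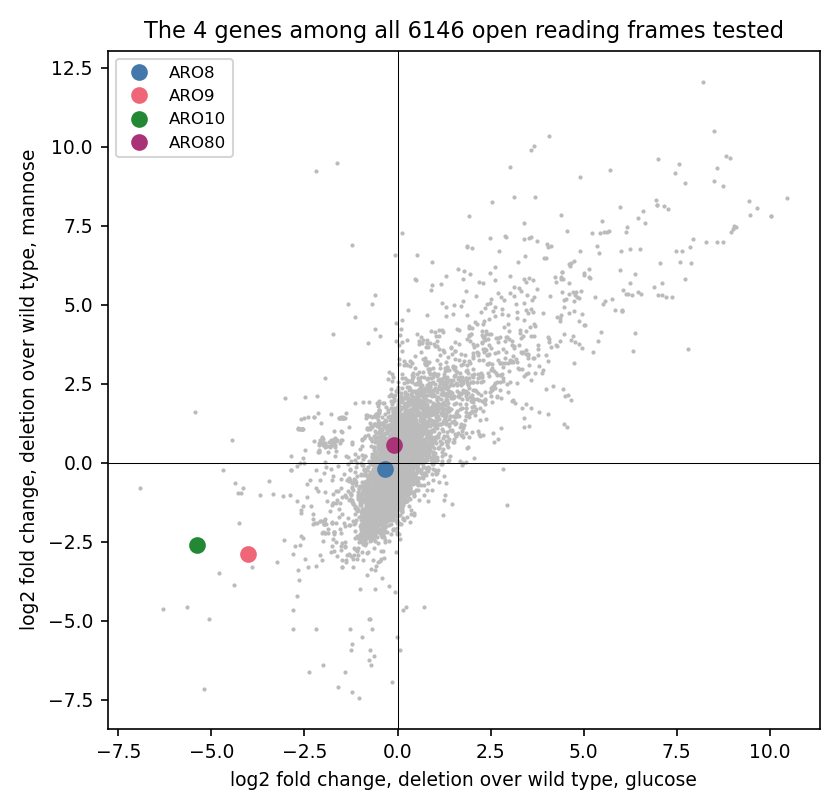
Genotype differences in glucose (horizontal) and mannose (vertical) for all 6146 open reading frames tested, as log2 fold change of the deletion over wild type. Grey points are all genes and coloured points ARO8, ARO9, ARO10 and ARO80. ARO9 and ARO10 lie at the low end on both axes, and ARO8 and ARO80 near the centre of the cloud.

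The mannose and glucose levels were also set against each other within each genotype. These comparisons share the glucose libraries with the one that picked the genes, so their values carry no test. In the deletion ARO10 was at 4.97 CPM in mannose, against 1.16 and 1.32 CPM in glucose, a log2 fold change of 1.99 ± 0.22 (SE). ARO9 was at 10.4 CPM in mannose, above the 4.86 and 5.89 CPM in glucose, a log2 fold change of 0.94 ± 0.15. ARO80 was at 51.6 CPM in mannose, against 28.7 and 28.9 CPM in glucose, a log2 fold change of 0.84 ± 0.10. ARO8, at 407 CPM in mannose and 396 and 374 CPM in glucose, had a log2 fold change of 0.08 ± 0.09, which turned to -0.22 with GC and length trends removed, to -0.18 with upper-quartile scaling and to -0.014 without deletion glucose replicate 2. In this comparison 77.2% of all tested were called and 37.6% were called higher and 39.7% lower.

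In wild type ARO10 was at 30.4 CPM in mannose, against 49.1 and 55.0 CPM in glucose. The mannose library lay below both glucose libraries, and the log2 fold change was -0.77 ± 0.11. The other genes lay closer to 0. ARO9 had a log2 fold change of -0.16 ± 0.10, ARO80 one of 0.20 ± 0.10 and ARO8 one of -0.04 ± 0.09. Over all genes 37.4% were called, 20.5% higher and 16.9% lower. The mannose value of ARO10 thus lay above the glucose values in the deletion and below them in wild type. The difference between these log2 fold changes was 2.76 ± 0.25 on the log2 scale, against 1.11 ± 0.18 for ARO9, 0.64 ± 0.15 for ARO80 and 0.13 ± 0.13 for ARO8, given with no test because it holds the contrast that picked them. Of all genes tested, 64.2% were called for that difference, 29.7% higher and 34.4% lower.

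As a share of wild type, ARO9 stood at 13.3% in mannose and 6.14% in glucose, and ARO10 at 16.3% in mannose and 2.38% in glucose. ARO80 was at 147% and 94.1%, and ARO8 at 86.5% and 79.3%. CYC8 itself was at 4.02% of wild type in the deletion library in mannose and at 1.25% in glucose. The residual CYC8 counts of the deletion libraries thus moved with ARO9 and ARO10 between the sugars, and their part in these values was not tested.

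**Figure D4:**
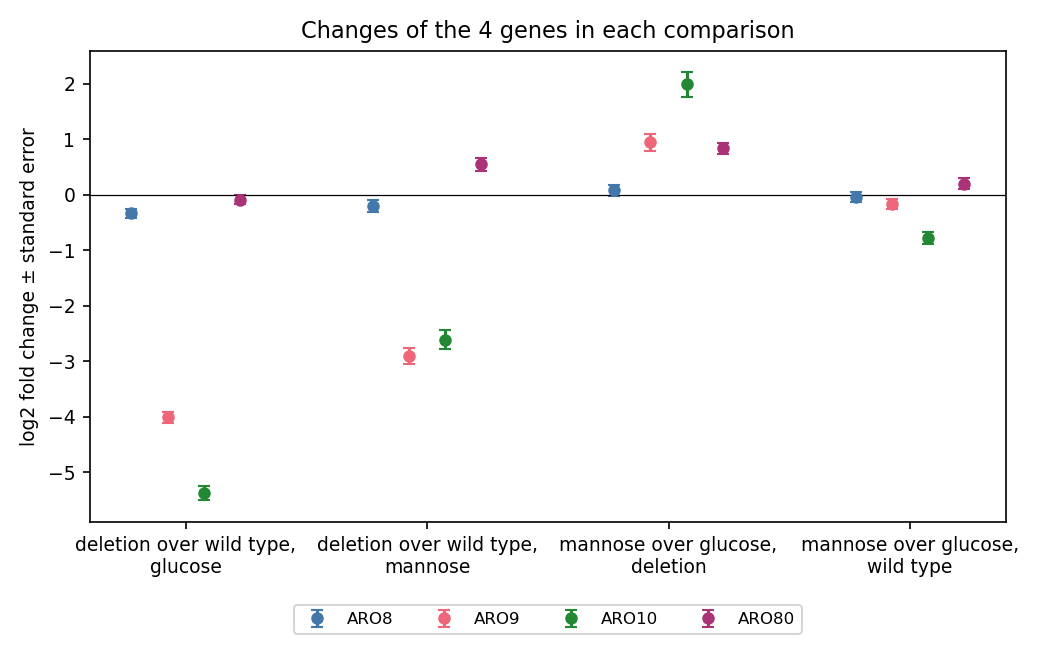
log2 fold changes of ARO8, ARO9, ARO10 and ARO80 in 4 comparisons, with standard errors as bars. From left to right they are genotype in glucose, genotype in mannose, mannose against glucose in the deletion, and mannose against glucose in wild type. ARO9 and ARO10 are far below 0 in both genotype comparisons, and ARO10 is above 0 for mannose in the deletion and below 0 for mannose in wild type.

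The genes nearest in pattern were found from the 4 group means, by the Euclidean distance between profiles of log2 CPM centred on their own mean. ARO9 and ARO10 were near each other, at 0.760. Nearer to ARO9 than any other was BAR1, the secreted protease that degrades alpha factor, at 0.556, followed by OPT2, of the oligopeptide transporter family, at 0.760. FUS1, which acts in cell fusion during mating, lay at 0.909 and LEU9, an enzyme of leucine synthesis, at 1.05. OPT2 had only 6 counts in deletion mannose and 7 and 17 in deletion glucose. FUS1 had 42 counts in deletion mannose and 22 and 18 in deletion glucose. The 0.5 CPM added before taking logs therefore weighs on both of their distances. BAR1 averaged 9.72 CPM in deletion mannose, 96.5 in wild-type mannose, 8.48 in deletion glucose and 128 in wild-type glucose. For ARO10, BAR1 (1.08) came after ARO9, and FUS1 (1.24) after YMR046C (1.21) and YBL005W-A (1.22). The last pair are annotated as retrotransposon gag proteins, whose near-identical copies make their counts uncertain. With Pearson correlation over the 6 libraries as the measure, none of the 5 nearest genes was the same for ARO9 or for ARO10. CYC8, the deleted gene, was then nearest to ARO9, followed by BDF1, PML39, ALD5 and RRP6, and the nearest to ARO10 were CHO2, PML39, SLI1, ALD5 and SAM2.

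None of the 4 genes overlaps another open reading frame of the RefSeq R64 annotation. The 689 counted open reading frames outside that annotation were not checked. SPL2, a regulator of phosphate uptake that starts 608 bp from ARO9 on the opposite strand and shares its CCG run, had a log2 fold change of -0.23 ± 0.39 in mannose, deletion over wild type, and was not called (adjusted p = 0.584, edgeR). In glucose it fell, at -2.87 ± 0.20 (adjusted p = 8.5e-24). SDH6, an assembly factor of succinate dehydrogenase that starts 700 bp from ARO10 and shares its run, rose in mannose, at 2.15 ± 0.24 (adjusted p = 1.76e-13, edgeR). In glucose it was at 0.19 ± 0.19 and was not called (adjusted p = 0.394), and leaving out single libraries gave -0.09 (without wild-type replicate 1) to 0.58 (without wild-type replicate 2, adjusted p = 0.0432, edgeR).

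SOH1, a subunit of Mediator, and ASK1, of the kinetochore's DASH complex, carry the other runs of 4 triplets. They had log2 fold changes of 0.35 ± 0.15 and 0.36 ± 0.12 in mannose, where both rose (adjusted p = 0.0218 and 0.0058, edgeR), and of 0.15 ± 0.10 and 0.16 ± 0.09 in glucose, where neither was called. In glucose both were called without deletion replicate 2, at 0.29 (adjusted p = 0.0134, edgeR) and 0.29 (adjusted p = 0.00307), and ASK1 with the replicate number as a block, at 0.22 (adjusted p = 0.0401). With upper-quartile scaling the values in mannose were 0.03 and 0.04 and neither was called. Downstream of ARO9, YHR138C rose, at 3.98 ± 0.17 in mannose and 2.33 ± 0.12 in glucose. YRA1, an mRNA export factor downstream of ARO10, fell at -0.49 ± 0.11 and -0.39 ± 0.07. HKR1, a mucin-like membrane sensor upstream of ARO80, rose at 1.02 ± 0.11 and 0.49 ± 0.07, and SIP1, a subunit of the Snf1 kinase downstream of it, fell at -0.38 ± 0.11 and -0.26 ± 0.08. Beside ARO8, KEX1, a carboxypeptidase, fell at -0.34 ± 0.11 and -0.28 ± 0.08 and MCM6, of the replicative helicase, at -1.11 ± 0.11 and -0.18 ± 0.07. The fall of MCM6 in glucose was lost without wild-type replicate 1 (adjusted p = 0.175, edgeR), wild-type replicate 2 (0.131) or deletion replicate 2 (0.31), with DESeq2 (0.24) and with the replicate number as a block (0.194). The fall of SIP1 in glucose was lost without wild-type replicate 1 (adjusted p = 0.0832, edgeR) and with DESeq2 (0.0607).

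The other genes of the route are described from lists chosen by function, by counts of calls and medians beside those of all genes, where the median log2 fold change was -0.07 in mannose and -0.08 in glucose. For genotype in mannose 38.3% of all genes were called higher and 41.1% lower, and for genotype in glucose 30.1% and 37.8%. All 5 aldehyde dehydrogenase genes, whose enzymes can make fusel acids, were called in each sugar, 4 higher and 1 lower, with medians of 2.73 in mannose and 1.12 in glucose. ALD4, of mitochondria, rose at 2.73 ± 0.12 in mannose and 3.39 ± 0.09 in glucose, and ALD6 at 0.95 and 1.12. ALD3 rose at 3.64 ± 0.13 and 1.43 ± 0.09 and ALD2 at 2.80 ± 0.13 and 1.02 ± 0.09, while ALD5 fell at -1.22 ± 0.11 and -1.90 ± 0.08. ALD2 and ALD3 are closely related copies, so the split of reads between them is uncertain.

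Of 8 genes for aldehyde reduction, 3 rose and 3 fell in mannose and 2 rose and 3 fell in glucose, with medians of -0.27 and -0.05. ADH1, the main alcohol dehydrogenase of fermentation, fell at -0.51 ± 0.13 in mannose and -0.63 ± 0.09 in glucose. ADH3 was at 0.43 in mannose and 0.59 in glucose, and ADH4 at -0.45 and -0.70. SFA1, which also oxidises formaldehyde conjugates, rose at 0.59 ± 0.11 and 0.61 ± 0.08. The exporter of fusel and other weak acids, PDR12, rose in mannose at 2.04 ± 0.12, and in glucose had a value of -0.09 ± 0.08 and was not called. Without deletion glucose replicate 2 it was called lower, at -0.22 (adjusted p = 0.0112, edgeR). Its activator gene WAR1 rose in both, at 1.35 ± 0.12 and 0.41 ± 0.08.

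Among 6 other aminotransferase and decarboxylase genes of the pathway, 2 rose and 3 fell in mannose, and 1 rose and 2 fell in glucose. The medians were -0.11 and 0.13. PDC6, a minor pyruvate decarboxylase, rose at 6.54 ± 0.17 in mannose and 3.44 ± 0.13 in glucose. PDC1, the major one, fell at -1.41 ± 0.14 in mannose and was at 0.10 ± 0.10 in glucose, not called. With the replicate number as a block it was called in glucose, at 0.16 (adjusted p = 0.0469, edgeR). PDC5 fell at -1.07 ± 0.12 in mannose. BAT2, the cytosolic branched-chain aminotransferase, rose at 1.24 ± 0.10 in mannose and fell at -0.73 ± 0.07 in glucose, and BAT1, of mitochondria, fell at -0.35 ± 0.11 and -0.58 ± 0.07. PDC1, PDC5 and PDC6 are alike in sequence, so their counts are uncertain.

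Of 12 genes of aromatic amino acid synthesis, 1 rose and 8 fell in mannose and 1 rose and 7 fell in glucose, with medians of -0.70 and -0.23. ARO4, which makes the first intermediate of the pathway, fell at -0.53 ± 0.11 in mannose and -0.80 ± 0.08 in glucose. ARO3, for the same step, rose at 1.04 ± 0.10 in mannose and fell at -0.45 ± 0.07 in glucose. ARO7, chorismate mutase, fell at -1.93 ± 0.15 and -0.62 ± 0.09. TYR1, prephenate dehydrogenase, fell in mannose at -1.41 ± 0.16.

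Of 11 genes of aromatic amino acid uptake and sensing, 5 rose and 5 fell in mannose, and 4 rose and 5 fell in glucose, with medians of -0.10 and -0.02. The permease genes TAT1 and TAT2 fell, at -1.79 ± 0.11 and -2.19 ± 0.12 in mannose and -2.27 ± 0.08 and -1.99 ± 0.08 in glucose. AGP1, a broad permease, fell at -1.39 ± 0.12 and -2.54 ± 0.09, whereas GAP1, the general amino acid permease, rose at 3.24 ± 0.11 and 2.29 ± 0.08. In the kynurenine route, which also breaks down tryptophan, 3 of 7 rose and 3 fell in mannose, and 3 rose and 1 fell in glucose (medians 0.23 and 0.12). BNA2, its first enzyme, rose at 3.39 ± 0.15 and 2.40 ± 0.11, and BNA4 fell at -1.25 ± 0.15 and -0.94 ± 0.10.

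Of 20 targets of nitrogen catabolite repression, the system that keeps such genes low on good nitrogen sources, 13 rose and 1 fell in mannose, with a median of 1.40. In glucose 8 rose and 4 fell, with a median of 0.08. GAP1 and AGP1 stand in this list as well. PUT4, the proline permease, rose at 6.74 ± 0.14 in mannose and 6.25 ± 0.11 in glucose, and MEP3, an ammonium permease, fell in glucose at -1.93 ± 0.09. Of 5 genes of that system, 4 for GATA factors and URE2 for their inhibitor, 3 rose and 1 fell in mannose, and 1 rose and 1 fell in glucose (medians 0.27 and 0.05). GAT1, an activator, rose at 0.95 ± 0.12 and 0.68 ± 0.09. DAL80, a repressor, rose in mannose at 2.39 ± 0.46, from only 62 counts in the deletion and 20 in wild type. GLN3, an activator, was called higher in mannose at 0.27 ± 0.12, a value that turned to -0.06 with upper-quartile scaling and missed the threshold without wild-type glucose replicate 1 (adjusted p = 0.0931, edgeR) or 2 (0.0937).

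Of 7 other zinc cluster activator genes, 2 rose and 1 fell in mannose, and 1 rose and 4 fell in glucose (medians -0.06 and -0.23). UGA3, of the 4-aminobutyrate genes, rose at 2.13 ± 0.13 and 0.60 ± 0.09, and LEU3, of the leucine genes, fell in glucose at -0.40 ± 0.08. For breakdown of other amino acids, 5 of 11 genes rose and 6 fell in mannose, and 3 rose and 6 fell in glucose (medians -0.89 and -0.65). PUT1, PUT2, UGA1 and GDH2 of this list are also among the targets of nitrogen catabolite repression. PUT1, proline oxidase, rose at 3.47 ± 0.18 and 2.17 ± 0.13, and CAR1, arginase, fell at -1.90 ± 0.11 and -1.66 ± 0.08. Of 15 genes of general amino acid control, 5 rose and 6 fell in mannose, and 4 rose and 9 fell in glucose (medians 0.01 and -0.35). CPA1, of arginine synthesis, rose at 3.09 ± 0.11 in mannose, and HIS4, of histidine synthesis, fell at -1.87 ± 0.11 and -1.76 ± 0.08.

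**Figure D5:**
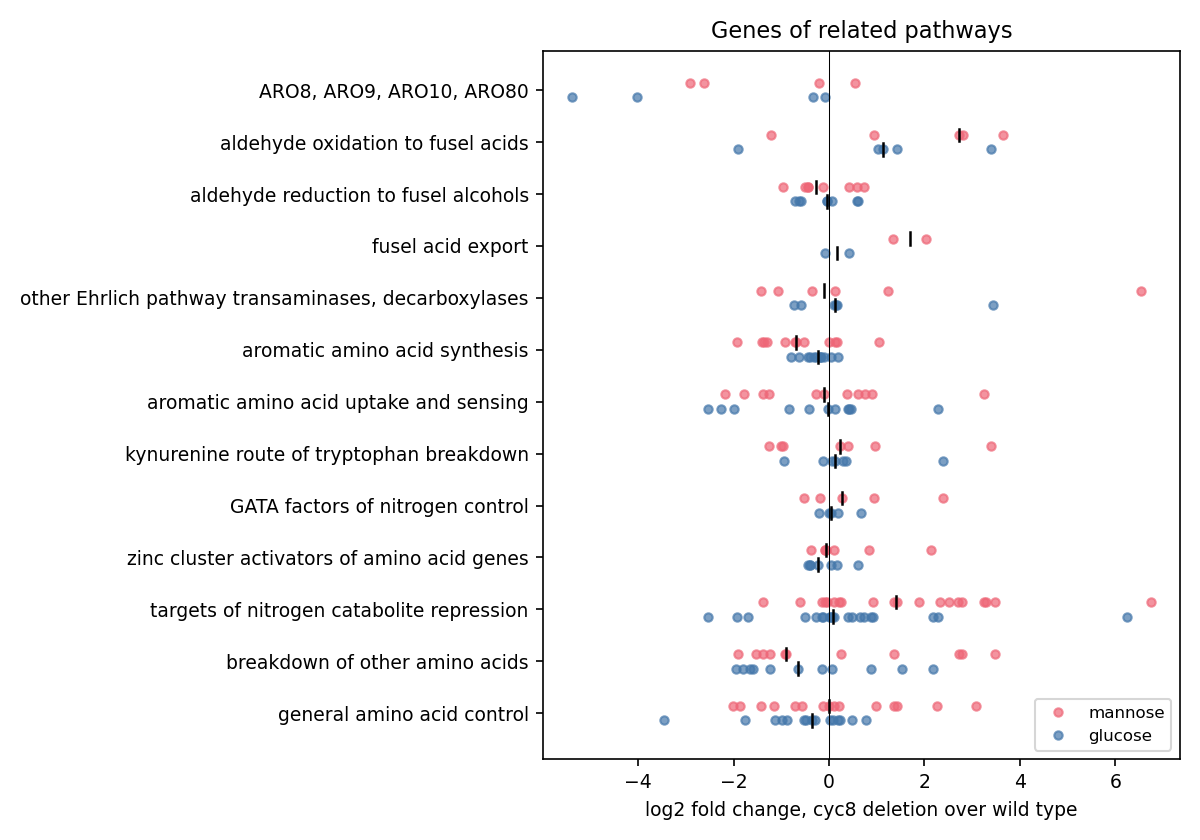
Genotype differences, as log2 fold change of the deletion over wild type, for ARO8, ARO9, ARO10 and ARO80 and for the genes of 12 related lists, in mannose (upper points of each row) and glucose (lower points). Black ticks are the medians of the lists. The aldehyde oxidation genes lie mostly above 0, while ARO9 and ARO10 lie far below it.

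Between the sugars in the deletion, 16 of the 20 targets of nitrogen catabolite repression rose and 1 fell (median 1.16, against -0.04 over all genes), and 4 rose and 3 fell in wild type (median 0.17, against 0.02). All 5 aldehyde dehydrogenase genes rose with mannose in the deletion (median 1.33), and 4 rose and 1 fell in wild type (median 0.53). Of the 12 genes of aromatic amino acid synthesis, 3 rose and 7 fell in the deletion (median -0.63), and 1 rose and 2 fell in wild type (median -0.10). Of the 15 genes of general amino acid control, 7 rose and 6 fell in the deletion (median 0.02). In wild type 1 rose and 8 fell (median -0.28). Over all genes 37.6% were called higher and 39.7% lower in the deletion, and 20.5% and 16.9% in wild type. The lists were counted with TMM scaling only.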

How the data were processed

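RNA was depleted of ribosomal RNA with Ribo-Zero Gold and sequenced from TruSeq stranded libraries, per the labels. As deposited by the authors, each file gives raw read counts for the open reading frames of 1 library. The sacCer3 build is named in the submitters' processing notes, as are TopHat2 2.0.9, Bowtie2 2.3.4.2 and CASAVA 1.8. Which program counted the reads, with which strand setting and which rule for multiple matches, was not stated among the sources used. Depth per library was 26195734 to 44084216 counts; intervals and the floor of 3 counts cover counting error only. Of 6696 open reading frames, 6007 matched the RefSeq R64 annotation.

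Counts were tested with edgeR 4.0.16 (R 4.3.3), with filterByExpr (550 open reading frames left out), TMM scaling and a quasi-likelihood F test, Benjamini-Hochberg adjusted over 6146. The fit had 1 mean per group, 2 residual and 86.7 prior degrees of freedom, and replicates varied by 5.54% (common biological coefficient of variation). Each mannose group, 1 library, was assumed to vary like the glucose pairs. Each standard error was obtained by dividing the size of the log2 fold change by the root of its F value. The test of genotype in glucose was run on simulated data. Few genes were changed in them, so they cannot test the scaling of a comparison in which 67.9% were called. Alternatives were upper-quartile scaling, DESeq2 1.42.0, no filter, a fixed coefficient of variation of 0.2, removal of GC and length trends, leaving out glucose libraries and a replicate block. Coding sequences were compared with blastn 2.17.0; a comparison of proteins was not run.

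The planned tests of mannose against glucose were not used for the 4 genes, which were picked with the glucose libraries. The 4 genes and the gene lists were chosen with earlier results of these data known. Named are those 4, CYC8, TUP1 and the strain markers, the adjoining genes, the 5 genes nearest in pattern to ARO9 and ARO10, members of lists of 8 or fewer, and in longer lists the 2 largest called rises and falls per comparison. Not every gene that this rule allows is named. SOH1 and ASK1 were named after their promoters were searched. TUP1, Cyc8's partner, fell at -0.79 ± 0.11 in mannose and -0.51 ± 0.08 in glucose.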

Additional observations from a re-analysis of the deposited data

Results flagged for a closer look

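ARO10, ARO9 and ARO8 were picked out because the mannose library lay above both glucose libraries in the deletion and below both in wild type. The share of all genes that meet this rule was not counted. The log2 response to mannose in the deletion minus that in wild type was 2.76 for ARO10, 1.11 for ARO9 and 0.13 for ARO8. The ARO8 value had a standard error of 0.13. It turned to -0.12 with upper-quartile scaling and to -0.073 with GC and length trends removed. The difference in response was not tested for these genes because it holds the contrast that picked them.

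The 6 genes nearest in pattern to ARO9 and ARO10 were chosen on these same values and are left out of what follows. Of 62 other named genes, 38 had a genotype effect that differed between the sugars (interaction term, edgeR quasi-likelihood test), and 64.2% of all genes tested had one as well. Genes of the longer lists were themselves named by their called changes in these same data. The count of 38 is therefore a description and no result about the named genes. The values that follow are the log2 genotype effect in mannose minus that in glucose. CYC8 itself had 1.66. Among neighbours of the 4 genes, MCM6 had -0.93, SPL2 2.64, YHR138C 1.65, SDH6 1.97 and HKR1 0.53. In aromatic amino acid synthesis ARO3 had 1.49, ARO7 -1.31 and TYR1 -1.23. Among aminotransferases and decarboxylases BAT2 had 1.97, PDC1 -1.51, PDC5 -1.22 and PDC6 3.11. Among aldehyde dehydrogenases and acid export ALD2 had 1.78, ALD3 2.21, ALD4 -0.66, ALD5 0.68, PDR12 2.13 and WAR1 0.94. In uptake and sensing TAT1 had 0.48, AGP1 1.15, GAP1 0.95 and STP2 0.44, and in the kynurenine route BNA2 had 1.00. In nitrogen control DAL80 had 2.38 (from only 13 to 62 counts per library), GZF3 -0.57, PUT4 0.50, MEP3 1.77 and PUT1 1.30. In breakdown of other amino acids CAR2 had 1.02, UGA2 1.21 and GDH2 2.95. In general amino acid control ARG1 had 2.89, CPA1 2.91, ARG3 1.79 and HIS1 -1.01, and among zinc cluster activators UGA3 had 1.53 and ARG81 1.28.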

How the results depend on the processing

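The values of ARO9 and ARO10 in both genotype comparisons kept their direction under every alternative run, ARO9 from -3.23 to -2.85 and ARO10 from -2.94 to -2.56 in mannose. With a fixed coefficient of variation of 0.2 the calls fell to 2820 (of 4879) for genotype in mannose, 1491 (of 4173) for genotype in glucose, 2496 (of 4746) for mannose in the deletion, 149 (of 2300) for mannose in wild type and 818 (of 3943) for the interaction. ARO80 in mannose (0.55, adjusted p = 0.274) then missed the threshold. DESeq2 called 1533 for mannose in wild type, and leaving out libraries gave 1516 to 2734, with 1516 without wild-type glucose replicate 1 and 1520 without replicate 2.

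Upper-quartile scaling gave ARO8 -0.53 and ARO80 0.23 for genotype in mannose, set mannose in the deletion at -0.18 for ARO8, 0.69 for ARO9, 1.73 for ARO10 and 0.58 for ARO80, moved the interaction values to -0.12 for ARO8, 0.86 for ARO9 and 0.39 for ARO80, and turned GLN3 in mannose to -0.056. It set the higher and lower calls at 1852 and 3141 for genotype in mannose (2352 and 2527 with TMM), 1822 and 3051 for mannose in the deletion (2308 and 2438) and 1387 and 2820 for the interaction (1826 and 2117). It also moved the median of all genes, to -0.39 for genotype in mannose, -0.30 for mannose in the deletion and -0.33 for the interaction. Removing GC and length trends gave ARO8 -0.34 for genotype in mannose (adjusted p = 0.00183), -0.22 for mannose in the deletion, opposite in sign to 0.08, -0.15 for mannose in wild type and -0.073 for the interaction. For mannose in the deletion it gave ARO9 0.72 and ARO80 0.72. The cause was not tested.

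Leaving out each glucose library in turn gave -0.34 to -0.23 for ARO8, -4.11 to -3.83 for ARO9 and -5.46 to -5.23 for ARO10 for genotype in glucose, -0.21 to -0.19 for ARO8 for genotype in mannose, and -0.014 to 0.082 for ARO8 and 0.76 to 1.05 for ARO9 with mannose in the deletion. With the replicate number as a block, genotype in glucose had 3921 calls. The differences of the replicate pairs correlated at -0.0463 across genes. This value alone cannot tell whether samples of the same replicate number were handled together. Mannose has 1 library per genotype, and no paired analysis was possible there.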
